A study of Rattus norvegicus with 6 samples.

Results

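Sperm are built by a fixed succession of transcription factors, and 10 genes that encode such factors or their partners were followed here through single cells of the rat testis: Crem, Rfx1, Rfx2, Rfx4, Mybl1, Tbpl1, Sox30, Taf7l, Fhl5 and Gtf2a1l. They were taken by name, and all 10 were among the 21170 genes in the count tables of the 6 libraries. The libraries came from testicular tissue of SD rats, an outbred laboratory strain. Of the animals, 3 were taken after psychological stress from terrifying sounds, and 3 were normal controls, with 1 library per animal. The labels give neither the length of the exposure nor the age of the animals. The study asks what psychological stress does to the formation of sperm.

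In spermatogenesis, spermatogonia become spermatocytes, which go through meiosis, and the haploid round spermatids that result elongate, pack their DNA with protamines and grow a tail. MYBL1, also called A-MYB, drives genes of meiotic prophase in the mouse, among them those of the pachytene piRNA pathway, and RFX2 acts with it and on genes of the cilium and the sperm tail. CREM, with its partner FHL5 (also called ACT), turns on genes of the spermatid in the mouse, and SOX30 is needed there for round spermatids to develop further. TBPL1 (also called TLF or TRF2), TAF7L and GTF2A1L (also called ALF) are germ cell relatives of general initiation factors, the proteins that place RNA polymerase II at a promoter.

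The libraries held 409, 2506 and 2233 cells in stressed replicates 1 to 3 and 2342, 1801 and 2453 cells in control replicates 1 to 3, 11744 in all. The total count of a library was between 16756543 in stressed replicate 1 and 114984746 in control replicate 3. Clusters were named from marker genes as spermatocyte-like (24, 223 and 363 cells in the stressed libraries, 469, 161 and 123 in controls), round spermatid-like (139, 708 and 926, against 785, 686 and 1273) and elongating spermatid-like (20, 1567 and 940, against 1084, 901 and 1055). Each class held its own markers, which was built in, since these markers named the classes. CPM is a gene's counts scaled to a fixed total of the cells' counts. The spermatocyte markers, for example, summed to 4965 to 6429 CPM in stressed and 4326 to 5828 CPM in control spermatocyte-like cells. The elongating spermatid markers summed to more there, to 6055 to 11111 CPM in stressed and 5962 to 8876 CPM in control libraries. In round spermatid-like cells they summed to 35509 to 58779 and 37835 to 51687 CPM. The round spermatid markers summed to 5705 to 6404 and 5866 to 6672 CPM there. No cluster was named spermatogonia or a somatic cell type of the testis, and 7 endothelial markers summed to at most 2.05 CPM in any class. Other sets summed to more. The Leydig markers summed to 83.9 to 112 CPM in round spermatid-like cells, and the spermatogonia markers to 267 to 822 CPM in spermatocyte-like cells. The peritubular myoid markers reached 86.5 CPM, in spermatocyte-like cells of stressed replicate 1. A library that stands apart is stressed replicate 1, where 224 of the 409 cells lay in an unnamed cluster led by Apoe, Cd74 and Fos. In its spermatocyte-like, round and elongating spermatid-like cells, the 12 macrophage markers summed to 676, 223 and 490 CPM, against at most 85.8 CPM in any class of the other libraries. For the 10 stromal markers the sum was 1061 CPM in the 24 spermatocyte-like cells of that library, against at most 29.8 CPM in that class elsewhere. The clusters within a class were also filled unevenly: cluster 0 held 1.44%, 16.1% and 35.2% of the round spermatid-like cells of stressed replicates 1 to 3 and 30.6%, 0.875% and 44.7% of those of control replicates 1 to 3. Libraries shared 2 cell barcodes.

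Short DNA motifs tie these factors to promoters, and a few rat promoters show the kind of sequence each factor reads. The sequences are RefSeq's, on build GRCr8, from 250 bases before to 50 bases after a gene's start. CREM binds the cyclic AMP response element, TGACGTCA, a palindrome that reads the same on both strands. It was found in 1.91% of the 27457 rat promoters of this length. Of 3 promoters listed for Crem itself, the third held it both 35 bases before and 40 bases after the start, and the second held it 56 bases before the start. Tnp1, the gene of a transition protein that replaces histones in spermatids, held it 113 bases before the start, the single match among 7 promoters of spermatid genes tied to CREM. The element was not particular to that list. It stood in 3 of 19 promoters of general initiation factors and in 3 of 19 of other regulators of meiosis and spermiogenesis. The third Crem promoter and the Tnp1 promoter are shown, with the element in capitals, because the courses of Crem and of its spermatid genes are described below.
Crem, chr17:58985240-58985539, plus strand: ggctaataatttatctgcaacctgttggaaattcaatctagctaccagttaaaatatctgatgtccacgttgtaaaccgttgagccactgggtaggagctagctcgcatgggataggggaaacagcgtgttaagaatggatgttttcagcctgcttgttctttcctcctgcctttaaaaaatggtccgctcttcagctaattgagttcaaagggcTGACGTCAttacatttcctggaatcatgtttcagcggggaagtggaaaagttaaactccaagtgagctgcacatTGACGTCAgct
Tnp1, chr9:82044229-82044528, minus strand: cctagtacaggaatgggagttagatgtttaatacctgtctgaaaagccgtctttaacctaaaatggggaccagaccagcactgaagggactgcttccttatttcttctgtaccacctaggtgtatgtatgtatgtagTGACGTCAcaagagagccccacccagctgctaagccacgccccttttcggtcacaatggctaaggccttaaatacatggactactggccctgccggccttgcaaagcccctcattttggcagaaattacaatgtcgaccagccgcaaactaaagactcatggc

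A MYB motif, CAACNG on either strand, is short and stood in 35.9% of the 27457 promoters. It stood in 6 of 11 promoters of meiotic genes tied to A-MYB. In promoters of cilium and axoneme genes it stood in 12 of 20, so it was not particular to the A-MYB list. The Rfx2 promoter held it 3 times, 199, 175 and 143 bases before the start, each as CCGTTG, which is CAACGG on the opposite strand. The nearest of these overlaps an RFX site, GTTGCC, that begins 141 bases before the start. Piwil1, which encodes a piRNA-binding protein of pachytene cells, held the MYB motif 72 bases before its start. Mael, of the same pathway, held it 74 bases before its start. These promoters are shown, with the MYB motif in capitals, because Rfx2, Piwil1 and Mael are among the genes that A-MYB is known to act on in the mouse.
Rfx2, chr9:1758097-1758396, minus strand: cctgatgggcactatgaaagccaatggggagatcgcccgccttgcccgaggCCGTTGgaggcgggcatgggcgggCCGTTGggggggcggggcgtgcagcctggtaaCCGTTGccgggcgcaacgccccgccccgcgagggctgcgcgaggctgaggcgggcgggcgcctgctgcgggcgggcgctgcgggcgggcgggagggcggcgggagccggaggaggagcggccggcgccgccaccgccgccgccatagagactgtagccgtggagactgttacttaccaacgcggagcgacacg
Piwil1, chr12:33606534-33606833, minus strand: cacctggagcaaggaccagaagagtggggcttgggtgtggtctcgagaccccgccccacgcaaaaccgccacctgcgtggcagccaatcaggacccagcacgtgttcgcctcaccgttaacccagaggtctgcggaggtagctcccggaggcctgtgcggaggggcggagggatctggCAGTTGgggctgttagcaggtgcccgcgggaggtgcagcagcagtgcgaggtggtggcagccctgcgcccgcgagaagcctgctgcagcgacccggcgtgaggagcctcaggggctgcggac
Mael, chr13:81029574-81029873, minus strand: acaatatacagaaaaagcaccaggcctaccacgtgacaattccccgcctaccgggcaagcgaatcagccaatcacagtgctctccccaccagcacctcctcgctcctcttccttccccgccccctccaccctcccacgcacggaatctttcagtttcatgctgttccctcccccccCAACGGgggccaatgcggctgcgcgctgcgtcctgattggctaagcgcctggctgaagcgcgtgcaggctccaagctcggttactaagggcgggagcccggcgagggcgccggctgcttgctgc

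The RFX site, GTTGCC on either strand, stood in 12.2% of the promoters and in 9 of 20 promoters of the cilium and axoneme genes tied to the RFX factors. Among the members it was found in the promoters of Rfx1, Rfx2, Taf7l and Gtf2a1l. A match describes the letters in the window and does not show that a factor binds there.

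To follow the genes along the lineage, the clusters were placed in 10 stages, each called by a small set of marker genes. The order of the stages was set together with these genes and was not tested. Some marker genes lead the clusters they place, such as Tmem123 and Cd109 in cluster 7, so they are not independent of these data. A cluster went to the stage whose marker genes had the highest mean z-score over clusters, so the markers need not be the leading genes of its clusters. Stages 1 (Psma8, Piwil1) and 2 (Aurka, Tpx2) are spermatocyte-like. Stages 3 (Tssk5, Lrrc34), 4 (Tex29, Sun5), 5 (Cd109, Tmem123) and 6 (Fam71a, Dcdc2c) are round spermatid-like. Stages 7 (Kansl1, Gmfg), 8 (Tnp2, Cst13), 9 (Prm2, Hspa1l) and 10 (Oaz3, Smcp, Odf1) are elongating spermatid-like, and the mean level of Prm2 itself was higher in stage 10 than in stage 9. The members were left out of the clustering. A level is the mean CPM over the libraries with at least 20 cells of the stage, stressed and control together, so it is a share of the stage's RNA. Stressed replicate 1 had enough cells in stages 3, 5 and 6 only, control replicate 2 had too few in stages 4 and 10, and control replicate 3 too few in stage 9. Levels by stage are a description, with no test. Some stages pool clusters that the libraries filled unevenly, so libraries within a stage need not hold like cells. Clusters 3 and 12 of stage 7 held 0.999% and 27.4% of the elongating spermatid-like cells of control replicate 2. In control replicate 3 they held 24.7% and 0.379%. For clusters 1 and 5 of stage 8 the shares were 0.333% and 35.2%, against 38.7% and 0.948%, in these libraries.

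**Figure D1:**
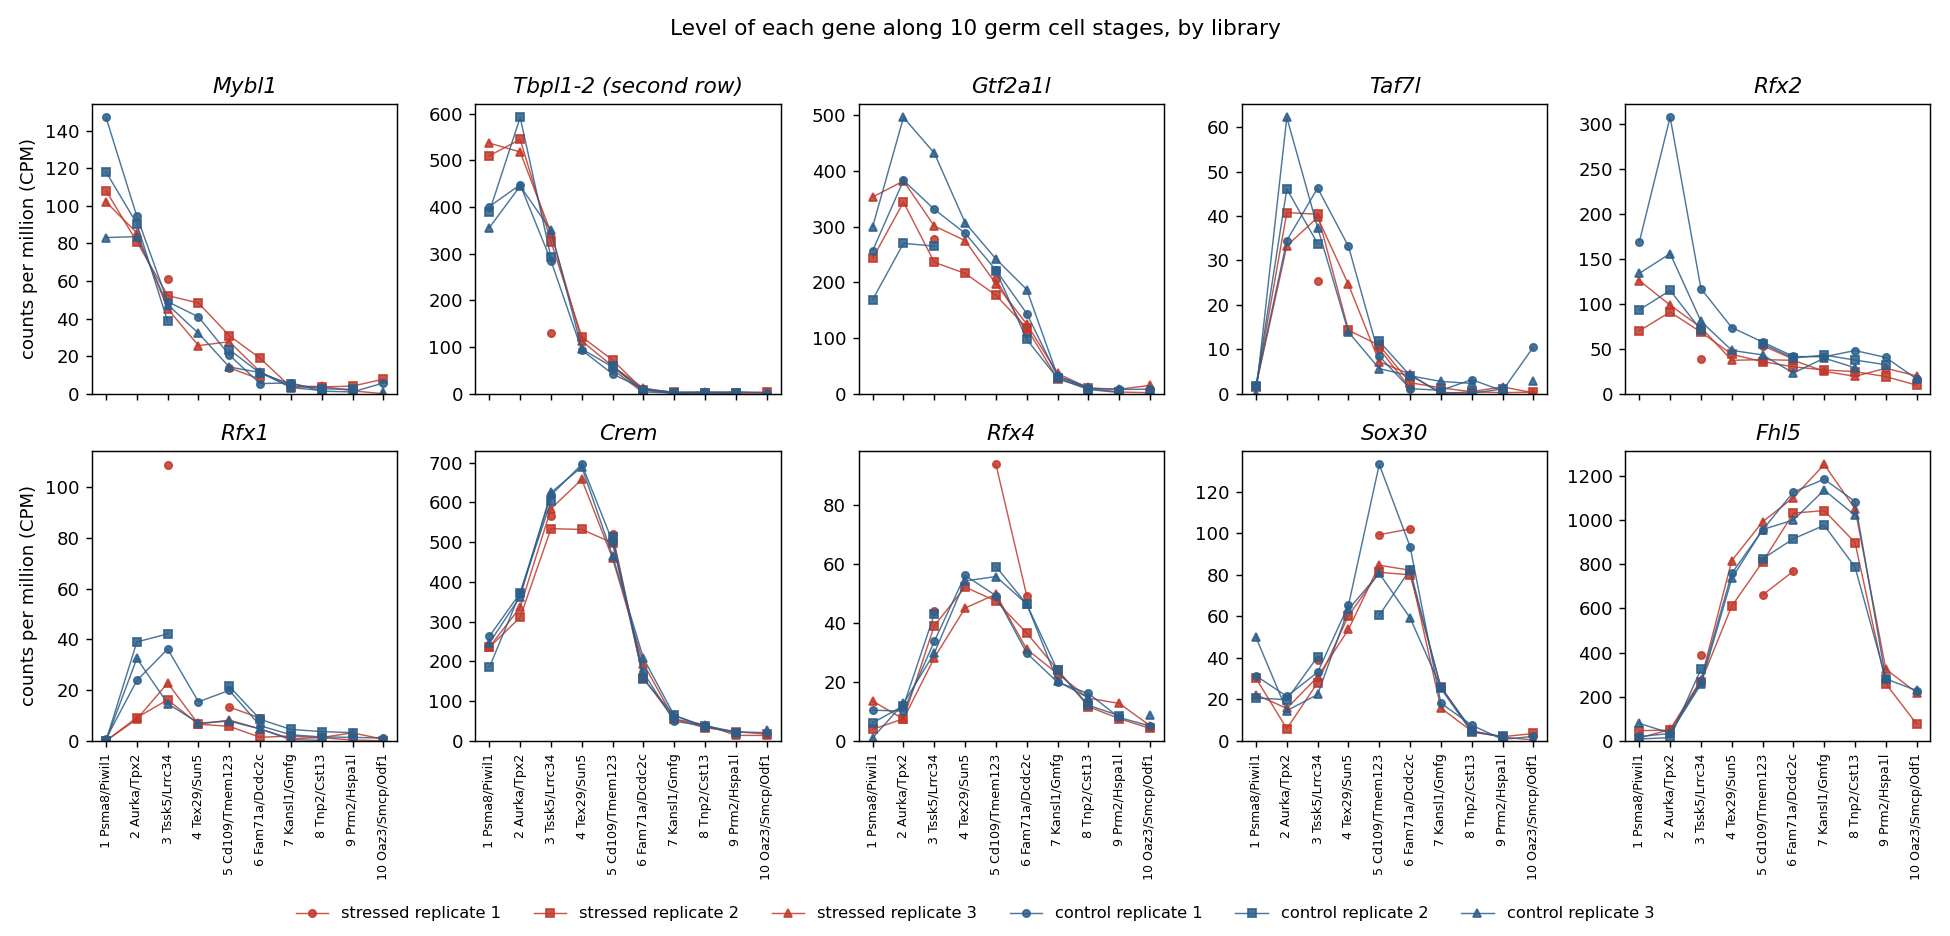
CPM of 9 members and of the row Tbpl1-2 (vertical axes) along the 10 stages called by their marker genes (horizontal axes), 1 line per library, red for stressed and blue for control. Mybl1 is highest in stage 1, Gtf2a1l and Taf7l in stage 2, Crem in stage 4, Rfx4 and Sox30 in stage 5 and Fhl5 in stage 7, and the high Rfx1 point at 109 CPM is stressed replicate 1.

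The members differed in the stage of their highest mean. Of the 9 with a level above 10 CPM in a stage, 1 was highest in stage 1, 3 in stage 2, 1 each in stages 3 and 4, 2 in stage 5 and 1 in stage 7. Over the 8401 genes that reached 10 CPM, 37.2% were highest in stage 1 and 19.4% in stage 2, and 11.5%, 8.82%, 5.17% and 3.15% in stages 3, 4, 5 and 7. Between its lowest and its highest stage a member spanned a median of 5.04 log2 units on the log2(CPM + 1) scale, against 4.27 over all 8401 genes. Single libraries did not always share the stage of the mean. Of the 5 libraries with at least 8 stages, it was the highest in 5 for Gtf2a1l and Fhl5 and in 4 for Mybl1, Rfx1, Rfx2 and Sox30. For Crem, Rfx4 and Taf7l it was the highest in 3, and the other 2 were highest in stage 3 for Crem and Taf7l and in stage 4 for Rfx4.

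Mybl1 opened the series. In stage 1 it was at 108 and 102 CPM in stressed replicates 2 and 3, against 147, 118 and 83.1 CPM in control replicates 1 to 3, a mean of 112 ± 23.7 CPM (SD, n = 5). The stressed libraries lay inside the control range. The mean was 87.0 ± 5.41 CPM in stage 2 (n = 5), overlapping with stage 1, and 49.0 ± 7.60 CPM in stage 3 (n = 6), below every library of stage 2. From stage 7 on it was at 4.33 CPM or less. Of the 13 meiotic genes tied to A-MYB in the mouse, 9 were highest in stage 1 and 3 in stage 2. Over the 8401 genes that reached 10 CPM, 37.2% and 19.4% were highest in these stages. Piwil1 is among the marker genes that called stage 1, so its place there was built in. Piwil1 was at 665 ± 238 CPM in stage 1 and at 49.8 ± 19.1 CPM in stage 2 (n = 5 each), while Mael ranged only between 557 and 679 CPM over stages 1 to 6 and was highest in stage 5.

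The germ cell initiation factors followed in stage 2. Gtf2a1l, the large TFIIA subunit of germ cells, was at 344 and 382 CPM in stressed replicates 2 and 3 in stage 2, against 383, 270 and 496 CPM in control replicates 1 to 3, and stage 2 was its highest in 5 of 5 libraries with at least 8 stages. Its mean of 375 ± 81.8 CPM (n = 5) overlapped with 264 ± 68.5 CPM in stage 1 and with 307 ± 69.1 CPM in stage 3 (n = 6), although it was higher in stage 2 than in stage 1 within each of 5 libraries. It declined to 130 ± 32.0 CPM in stage 6 (n = 6) and to 30.8 ± 3.85 CPM in stage 7 (n = 5). The somatic counterpart Gtf2a1 had another course, with 14.4 ± 6.79 CPM in stage 1 and its highest level, 119 ± 23.4 CPM, in stage 4 (n = 4).

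Taf7l, an X-linked TFIID subunit in the mouse, was close to 0 in stage 1, at 1.50 and 1.74 CPM in stressed replicates 2 and 3, against 1.99, 1.67 and 0 CPM in control replicates 1 to 3. The 0 of control replicate 3 allows a level of up to 3.11 CPM, from 3 counts of the stage's total. In stage 2 it was at 40.8 and 33.3 CPM in stressed replicates 2 and 3, against 34.5, 46.1 and 62.2 CPM in control replicates 1 to 3, so the libraries of the stages did not overlap. The mean was 43.4 ± 11.7 CPM in stage 2 (n = 5) and 37.1 ± 7.11 CPM in stage 3, and it was lower in each later stage up to stage 7, at 1.04 ± 1.09 CPM. Taf7, its counterpart in other cells, ran the other way from stage 1, at 104 ± 35.4 CPM, to stage 2, at 54.1 ± 12.9 CPM. Taf7 was at 14.3 ± 4.03 CPM in stage 3, and from stage 2 to stage 7 the means of both genes declined.

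Tbpl1, the TBP-like factor, was almost without counts: 0, 0 and 1 in stressed replicates 1 to 3 and 9, 1 and 2 in control replicates 1 to 3. A count of 0 allows up to 0.179 CPM in stressed replicate 1 and 0.0319 CPM in stressed replicate 2, and these limits cover counting error only. A second row of the tables, Tbpl1-2, held 49744 counts. The files do not say whether it stands for the same gene, so its values are given under that name and are not counted as Tbpl1. Tbpl1-2 was at 439 ± 79.5 CPM in stage 1 and at 510 ± 63.3 CPM in stage 2 (n = 5 each), with 545 and 518 CPM in stressed replicates 2 and 3, against 448, 592 and 445 CPM in control replicates 1 to 3. It was at 288 ± 81.9 CPM in stage 3, at 7.37 ± 3.85 CPM in stage 6 (n = 6 each) and at 1.92 CPM in stage 10. Tbp itself was highest in the same stage, at 144 ± 17.1 CPM, and was at 2.02 ± 1.29 CPM in stage 6.

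The 3 RFX genes, which share a winged helix DNA-binding domain, were highest in different stages. Rfx2 was a gene of spermatocytes, with 90.9 and 98.6 CPM in stage 2 in stressed replicates 2 and 3, against 308, 115 and 156 CPM in control replicates 1 to 3. Its mean of 154 ± 89.9 CPM rests on control replicate 1 for much of its size, and it overlapped with 118 ± 38.1 CPM in stage 1 (n = 5 each). It was still at 30 ± 8.88 CPM in stage 9 (n = 4), so its fold between the highest and the lowest stage, 10, was modest: 22.2% of the 8401 genes spanned less. No pair of neighbouring stages lay apart over its libraries.

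Rfx1 was hardly detected in stage 1, with 0 counts in 4 of 5 libraries and 0.829 CPM in control replicate 1. A count of 0 allows between 0.902 and 3.11 CPM there. In stage 3, its highest, it was at 109, 16.2 and 22.8 CPM in stressed replicates 1 to 3, against 36.2, 42.2 and 14.7 CPM in control replicates 1 to 3. Stressed replicate 1 alone lay above all controls, and without it the mean was 26.4 ± 12.2 CPM (n = 5) in place of 40.2 ± 35.4 CPM (n = 6). By class it was highest in round spermatid-like cells, and without stressed replicate 1 in spermatocyte-like cells. Its relative Rfx3, which was no member, also had a low level in stage 1, 1.97 ± 2.03 CPM, and its highest in stage 3, 51.4 ± 17.6 CPM.

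Rfx4 came last of the RFX members. In stage 5 it was at 93.9, 47.5 and 49.8 CPM in stressed replicates 1 to 3, against 49.3, 59.2 and 55.8 CPM in control replicates 1 to 3. Stressed replicate 1 was the high library, and without it the mean was 52.3 ± 4.95 CPM (n = 5) in place of 59.3 ± 17.5 CPM (n = 6). Stage 4, at 51.9 ± 4.86 CPM (n = 4), and stage 6, at 40.0 ± 8.54 CPM (n = 6), overlapped with it. It was at 7.01 ± 5.02 CPM in stage 1. Among the cilium and axoneme genes, 20 had a level above 10 CPM in a stage. Of these, 11 were highest in stage 1, 8 in stage 2, 1 in stage 3 and 0 in stage 5, where Rfx4 was highest. Over the 8401 genes, 37.2%, 19.4%, 11.5% and 5.17% were highest in these stages. The 0 of 20 in stage 5 is thus near the share over all genes. Tekt1, a filament protein of the axoneme, was at 1071 ± 364 CPM in stage 2 and 260 ± 26.6 CPM in stage 6.

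Crem counts cover the gene as a whole and do not separate its activator and repressor isoforms. Crem was already at 233 ± 29.1 CPM in stage 1 and at 351 ± 26.8 CPM in stage 2 (n = 5 each). In stage 4 it was at 532 and 658 CPM in stressed replicates 2 and 3, against 696 and 689 CPM in control replicates 1 and 3. Both stressed libraries lay below both controls in that stage. The same held in stage 2, with Crem at 311 and 336 CPM in stressed replicates 2 and 3, against 372, 372 and 363 CPM in control replicates 1 to 3. In stage 3 Crem was at 567, 534 and 584 CPM in stressed replicates 1 to 3, against 618, 603 and 625 CPM in control replicates 1 to 3. In stage 10 it was at 16.9 and 13.5 CPM in stressed replicates 2 and 3, against 20.6 and 26.1 CPM in control replicates 1 and 3. All stressed libraries with enough cells were thus below all controls in 4 of 10 stages and above them in 0. Of these stages, stressed replicate 1 had enough cells in stage 3 alone. Among the 8401 genes, 4.65% were lower in at least 4 stages, a limit that is the count of Crem itself. The stage 4 mean of 644 ± 76.5 CPM (n = 4, both groups) overlapped with 588 ± 34.3 CPM in stage 3 (n = 6) and lay above every library of stage 5, where the mean was 492 ± 25 CPM. It was at 174 ± 21.7 CPM in stage 6 (n = 6), at 57.3 ± 6.52 CPM in stage 7 (n = 5) and at 19.3 ± 5.41 CPM in stage 10 (n = 4), 33.4-fold under stage 4.

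Fhl5, the LIM-domain partner of CREM, went on climbing after Crem had passed its highest stage. In stage 7 it was at 1044 and 1253 CPM in stressed replicates 2 and 3, against 1186, 977 and 1137 CPM in control replicates 1 to 3, and stage 7 was its highest in 5 of 5 libraries. The mean was 36.5 ± 14.7 CPM in stage 2, 297 ± 50.7 CPM in stage 3, 731 ± 86.8 CPM in stage 4 and 1119 ± 110 CPM in stage 7. Within libraries it was higher in each stage than in the one before from stage 3 to stage 7, without exception, though from stage 4 to stage 8 the ranges of neighbouring stages overlapped. It was at 287 ± 27.6 CPM in stage 9 and at 188 ± 74.8 CPM in stage 10 (n = 4 each). Its stage 1 level of 33.1 ± 29.5 CPM was 2.95% of its highest, where the spermatid transcripts Tnp1, Tnp2 and Prm2 had 1.65%, 2.27% and 2.13% of theirs. The part of free RNA in these stage 1 levels was not tested.

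**Figure D2:**
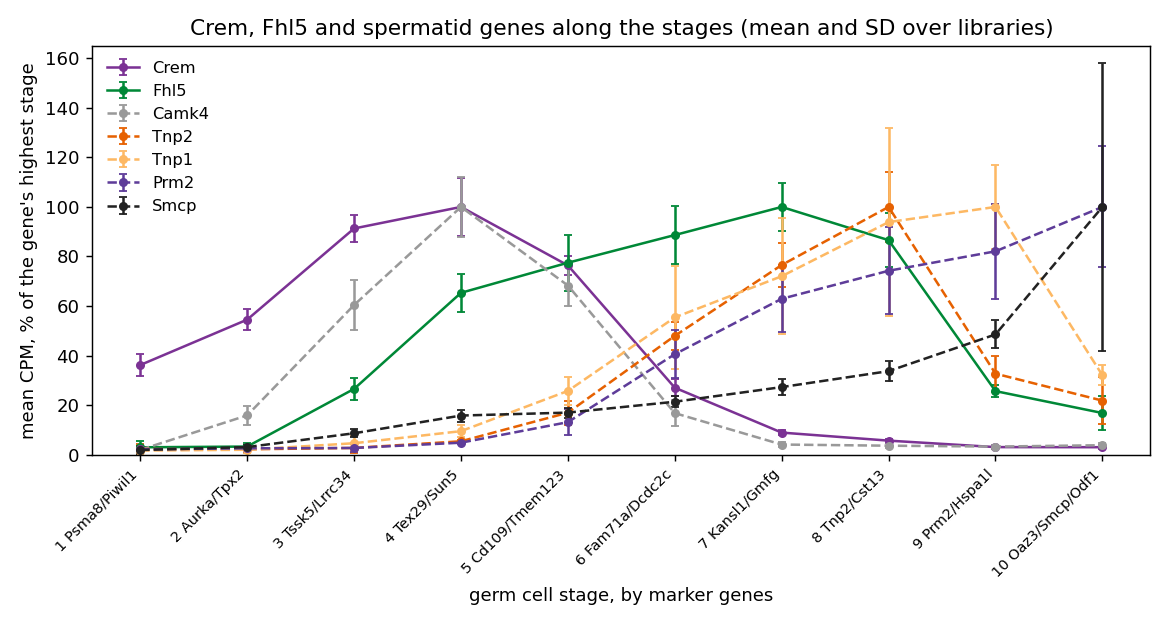
Mean CPM of each gene as a percent of its own highest stage (vertical axis, bars 1 SD over 4 to 6 libraries) along the 10 stages (horizontal axis). Crem and Camk4 are highest in stage 4, Fhl5 in stage 7, Tnp2 in stage 8, Tnp1 in stage 9, and Prm2 and Smcp in stage 10. Tnp2, Prm2 and Smcp are among the marker genes that called stages 8, 9 and 10.

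The spermatid genes tied to CREM in the mouse were mostly highest after Crem itself had declined. Of the 8 in the tables with a level above 10 CPM, 1 was highest in stage 1 and 1 in stage 4. Stages 8 and 9 had 1 each and stage 10 had 4. Over the 8401 genes that reached 10 CPM, 37.2% and 8.82% were highest in stages 1 and 4. Stages 8, 9 and 10 had 1.93%, 3.05% and 3.34%. Tnp2, Prm2, Smcp and Odf1 are themselves among the marker genes that called stages 8, 9 and 10. Their late highest stage was therefore largely built in and is no separate result. Camk4, a calcium-dependent kinase, shared the stage of Crem, at 6677 ± 802 CPM in stage 4 (n = 4). Tnp2, a transition protein, was at 1349 ± 92.1 CPM in stage 4 and at 25035 ± 3505 CPM in stage 8 (n = 5). Prm2, a protamine, was at 1354 ± 169 CPM in stage 4 and at 28062 ± 6850 CPM in stage 10. Smcp, of the mitochondrial capsule of sperm, was at 11817 ± 1829 CPM in stage 4 and at 74905 ± 43654 CPM in stage 10 (n = 4 each). Ace, the angiotensin-converting enzyme, was at 11.1 ± 7.98 CPM in stage 1, 54.3 ± 17.8 CPM in stage 2 and 280 ± 52.9 CPM in stage 3. From stage 3 on Ace was nearly level. Its highest level, 325 ± 79.3 CPM in stage 10, overlapped with 295 ± 50.6 CPM in stage 4. The gene highest in stage 1 was Ldhc, the lactate dehydrogenase of germ cells, at 1978 ± 366 CPM.

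Sox30, an HMG-box factor, had a course with a dip. It was at 30.8 ± 11.6 CPM in stage 1 and at 15.4 ± 6.07 CPM in stage 2, lower in stage 2 within each of 5 libraries though the ranges overlapped. It was at 32.3 ± 6.82 CPM in stage 3 and 60.6 ± 5.08 CPM in stage 4. In stage 5 it was at 99.2, 81.1 and 84.5 CPM in stressed replicates 1 to 3, against 133, 60.4 and 80.6 CPM in control replicates 1 to 3, a mean of 89.8 ± 24.6 CPM (n = 6). The stressed libraries lay within the control range. Stage 6, at 83.2 ± 14.4 CPM, overlapped with stage 5, and stage 7, at 22.2 ± 4.83 CPM, lay below every library of stage 6.

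Likeness of course was measured as Pearson's r of log2(CPM + 1) over 66 sums of cluster and library, among 5639 genes, and is a description, since the sums share libraries and clusters. Gtf2a1l was most like Hspa2 (r = 0.983), a heat shock protein of meiotic cells, then Sugt1 and Atp5if1 (0.980 each). Crem was most like Tsbp1 (0.976) and the tektin genes Tekt2 (0.975) and Tekt3 (0.972). Fhl5 was most like Trim80 (0.979), Aif1 (0.978) and 1700056E22Rik (0.975). Mybl1 came with Cisd1 and Dync1i2 (0.946 each) and Pcm1 (0.945), Sox30 with Ndufa5 (0.945), Fam76b (0.924) and Dbi (0.923), and Rfx4 with Fbxl6 (0.943), Iqca1l (0.940) and Coro2a (0.934). The r of the nearest genes was lower for Taf7l (RGD1309291 0.922, AABR07031674.7 and Mef2c 0.912 each), Rfx2 (Trim28 0.913, Arpc5l 0.889, Agbl2 0.888) and Rfx1 (Nutm1 0.906, AABR07028137.2 0.899, Ttc39a 0.886). Among the members the highest r was that of Crem and Gtf2a1l, 0.947, and the lowest that of Rfx2 and Fhl5, -0.586. Crem and its partner Fhl5 had an r of -0.164.

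Stressed and control animals were then compared within each class, on counts summed per library. Over all cells the groups of every member tested overlapped, and log2 changes lay between -0.43 for Taf7l and 0.29 for Fhl5. That comparison mixes a change per cell with a change in the share of each class, and in summed counts fewer cells of a type and less RNA per cell cannot be told apart. None of the 9 members tested passed the test in any class (edgeR's quasi-likelihood test with Benjamini-Hochberg adjustment over all genes, threshold 0.05), and Tbpl1 had too few counts to be tested. Few genes of any kind passed: 0 of 9986 in spermatocyte-like cells (0.0%), 2 of 12453 in round spermatid-like cells (0.0161%), 0 of 10287 in elongating spermatid-like cells (0.0%) and 1 of 14519 over all cells (0.00689%). At an unadjusted p under 0.05 there were 178, 265, 187 and 200 genes in these 4 comparisons, and DESeq2 called 4, 11, 13 and 14 genes, among them 0 members. Unadjusted p under 0.05 was reached by 2 members in spermatocyte-like cells, Rfx1 and Rfx2, where 1.78% of all genes reached it, and by 1 in elongating spermatid-like cells, Taf7l, where 1.82% did. It was reached by 0 members in round spermatid-like cells and over all cells, where 2.13% and 1.38% of all genes did. Few genes changed 2-fold were recovered in simulated data, as given under processing, so failing the test does not show an absence of change.

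**Figure D3:**
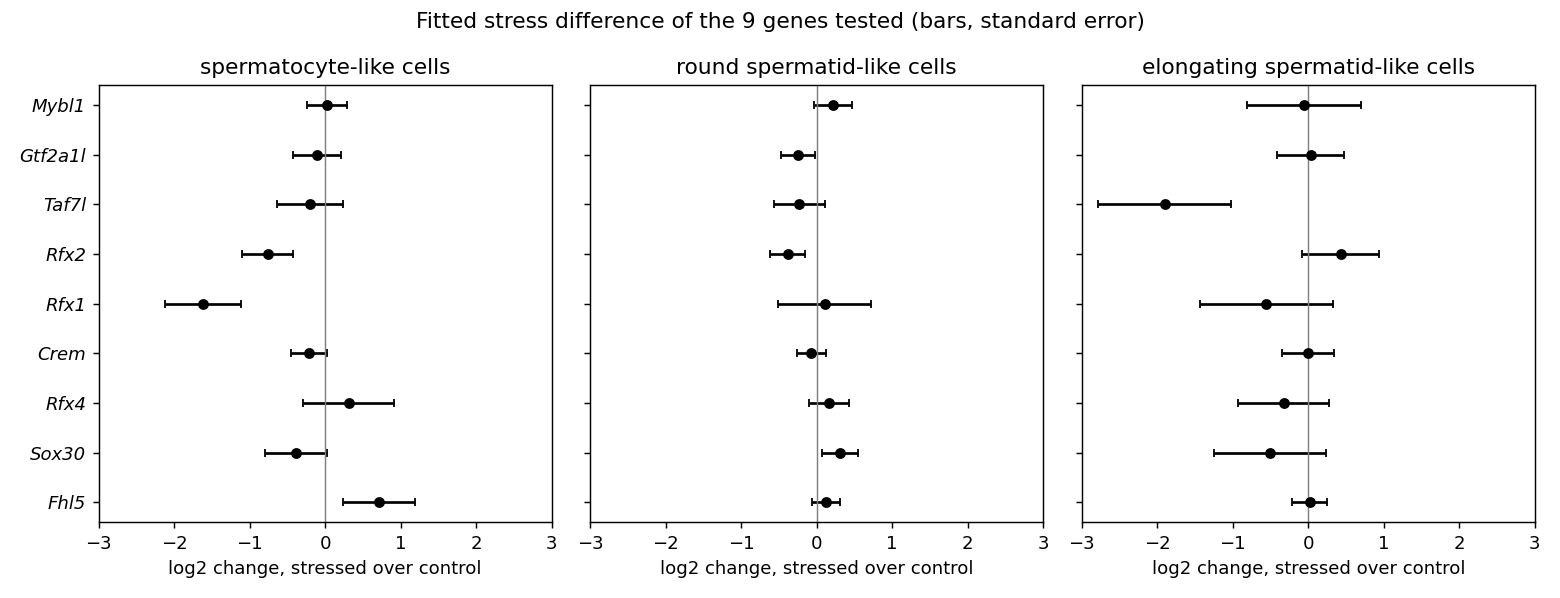
Fitted log2 change, stressed over control (horizontal axes, bars 1 standard error), of the 9 members tested in each class of germ cells. Rfx1 in spermatocyte-like cells (-1.62) and Taf7l in elongating spermatid-like cells (-1.90) lie farthest from 0, and no member passed the test.

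The lowest p among the members was that of Rfx1 in spermatocyte-like cells. It was at 11, 5.65 and 6.87 CPM in stressed replicates 1 to 3, against 15.6, 24.6 and 28.9 CPM in control replicates 1 to 3, with CPM here and below scaled by TMM factors. All stressed libraries lay below all controls. The log2 change was -1.62 (SE 0.51, edgeR unadjusted p = 0.00908, adjusted p = 1.0), and it lay between -1.87 and -1.39 when any single library was left out. Over all alternatives the adjusted p was 0.799 or more. Stressed replicate 1 gave this value from 10 counts in 2 of 24 cells, 5 of them in 1 cell, and its stromal and macrophage markers stood high, as given above. In control replicate 3 the level came from 159 counts in 11 of 123 cells, 47 of them (29.6%) in 1 cell. Without stressed replicate 1 the change was -1.87, so the difference was as large without it. Within stage 2 Rfx1 was at 9.15 and 8.54 CPM in stressed replicates 2 and 3, against 23.8, 39.0 and 32.5 CPM in control replicates 1 to 3, again without overlap. Cluster 4 makes up stage 2, and a fit in it, without stressed replicate 1, gave a log2 change of -1.77 (edgeR, adjusted p = 0.999). The stage 2 levels and this fit thus use the same cells. These cells are part of the spermatocyte-like cells tested above, so they are no separate evidence.

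Rfx2 was next in the same cells, with 104, 86.0 and 114 CPM in stressed replicates 1 to 3, against 249, 102 and 163 CPM in control replicates 1 to 3. The groups overlapped through control replicate 2. The log2 change was -0.76 (SE 0.34, edgeR unadjusted p = 0.0480, adjusted p = 1.0), and without control replicate 1 it was -0.39. In round spermatid-like cells Rfx2 was at 45.4, 44.9 and 47.1 CPM in stressed replicates 1 to 3, against 72.3, 54.5 and 52.6 CPM in control replicates 1 to 3. All stressed libraries lay below all controls there. The log2 change was -0.38 (SE 0.23, edgeR adjusted p = 0.997), -0.24 without control replicate 1 and 0.04 within cluster 8, which makes up stage 6. By stage, the stressed and control means of Rfx2 were 60.2 and 89.5 CPM in stage 3, 40.5 and 61.0 CPM in stage 4, 42.4 and 52.1 CPM in stage 5, and 35.2 and 34.8 CPM in stage 6. Of these 4 stages the libraries lay apart in stage 4 alone. Over all 10 stages, every stressed library with enough cells was below every control in 5 and above in 0. These were stages 2, 4, 7, 8 and 9. Stressed replicate 1 had too few cells in each of them, so stressed replicates 2 and 3 alone stand for the group there. In stages 3, 5 and 6, which hold stressed replicate 1, the groups overlapped. Stages 7 and 8 pool clusters that the libraries filled unevenly, as given above, so the libraries compared there need not hold like cells. Of the 8401 genes, 1.58% were lower in at least 5 stages, a limit that is the count of Rfx2 itself.

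**Figure D4:**
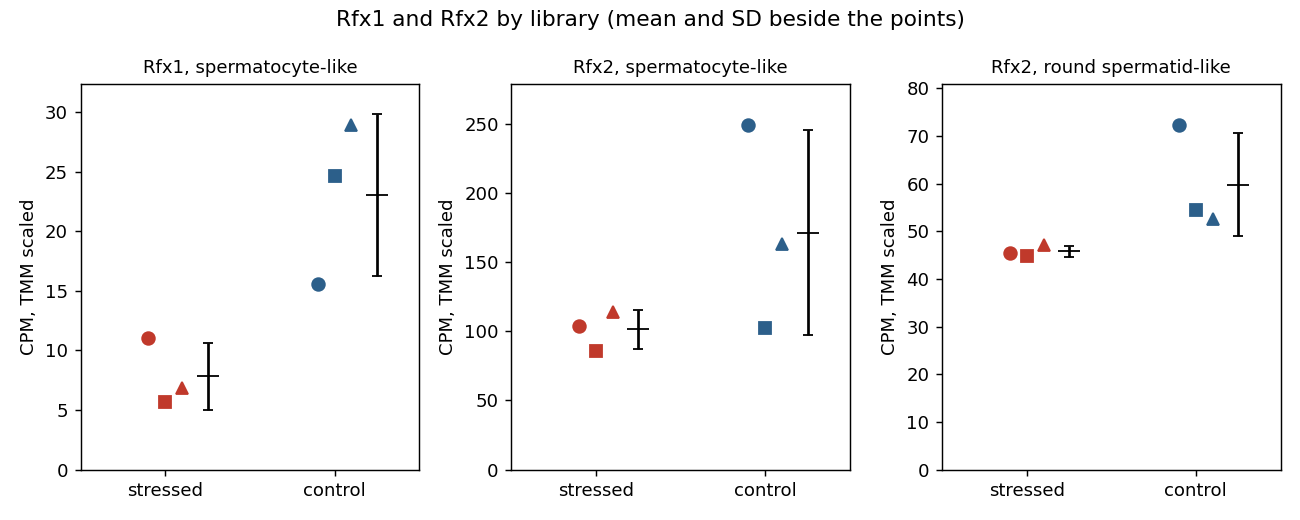
TMM-scaled CPM (vertical axes) of Rfx1 in spermatocyte-like cells and of Rfx2 in spermatocyte-like and round spermatid-like cells, 1 point per library, with the mean and SD of each group of 3 beside the points. The stressed libraries are below the controls without overlap for Rfx1 and for Rfx2 in round spermatid-like cells, and overlap with them for Rfx2 in spermatocyte-like cells.

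Sox30 was the other member whose groups did not overlap in spermatocyte-like cells, with 13.2, 16.4 and 18.5 CPM in stressed replicates 1 to 3, against 23.1, 19.0 and 21.7 CPM in control replicates 1 to 3. All stressed libraries were lower, by a narrow margin, with a log2 change of -0.39 (SE 0.41, edgeR adjusted p = 1.0). Thus 2 of 9 members were lower without overlap in spermatocyte-like cells, where 4.91% of the 9986 genes were (7.83% in either direction), and 1 of 9 in round spermatid-like cells, where 3.93% of the 12453 genes were (7.16% in either direction). In elongating spermatid-like cells and over all cells it was 0 of 9, where 5.36% and 2.67% of genes were lower without overlap (7.36% and 4.91% in either direction). Members higher without overlap numbered 0 in each of the 4 comparisons, where 2.92%, 3.24%, 2.0% and 2.25% of genes were higher.

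In round spermatid-like cells, Sox30 was at 90.5, 76.9 and 57.7 CPM in stressed replicates 1 to 3, against 66.3, 57.4 and 57.9 CPM in control replicates 1 to 3. The groups overlapped, with a log2 change of 0.31 (SE 0.24, edgeR adjusted p = 0.997). The difference between its changes in round and in spermatocyte-like cells was 0.83 in a test of that difference (edgeR interaction, unadjusted p = 0.27, adjusted p = 1.0). For Rfx1 that difference was 1.70 (edgeR interaction, unadjusted p = 0.0813, adjusted p = 1.0), and without stressed replicate 1 it was 1.08. For Taf7l the difference of elongating minus round spermatid-like cells was -1.47 (unadjusted p = 0.0869, adjusted p = 1.0). Over both such tests, of round minus spermatocyte-like and of elongating minus round spermatid-like cells, 0 of 15083 genes passed (0.0%). At an unadjusted p under 0.05 there were 437 and 286 genes, with 0 members among them. The median over all genes was -0.27 in the second test and -0.02 in it without stressed replicate 1, so member values in that test stand relative to that shift.

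Crem, the member followed from meiosis into spermatids, was at 437, 459 and 538 CPM in round spermatid-like cells of stressed replicates 1 to 3, against 496, 440 and 575 CPM in control replicates 1 to 3. The groups overlapped, with a log2 change of -0.08 (SE 0.19, edgeR adjusted p = 0.997). In spermatocyte-like cells it was at 215, 292 and 334 CPM in stressed replicates 1 to 3, against 318, 293 and 366 CPM in control replicates 1 to 3, a log2 change of -0.21 (SE 0.24). Fhl5 in elongating spermatid-like cells was at 676, 820 and 911 CPM in stressed replicates 1 to 3, against 798, 703 and 879 CPM in control replicates 1 to 3, a log2 change of 0.02 (SE 0.23). In spermatocyte-like cells, where its level is low, it was at 43.0, 49.6 and 44.8 CPM in stressed replicates 1 to 3, against 27.3, 11.7 and 45 CPM in control replicates 1 to 3. These groups overlapped at control replicate 3, and 76.9% of the Fhl5 counts of stressed replicate 1 lay in 1 cell.

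For the other members, the class where each was highest is given. Mybl1 in spermatocyte-like cells was at 100, 95.9 and 96.6 CPM in stressed replicates 1 to 3, against 105, 94.8 and 89.0 CPM in control replicates 1 to 3, a log2 change of 0.02 (SE 0.26). Gtf2a1l in the same cells was at 245, 316 and 402 CPM in stressed replicates 1 to 3, against 324, 224 and 494 CPM in control replicates 1 to 3, a log2 change of -0.11 (SE 0.32). Taf7l was at 41.9, 25.8 and 27.3 CPM in stressed replicates 1 to 3, against 22.8, 29.5 and 55.3 CPM in control replicates 1 to 3, a log2 change of -0.20 (SE 0.44). For each of these the groups overlapped. Rfx4 in round spermatid-like cells was at 66.3, 48.6 and 40.0 CPM in stressed replicates 1 to 3, against 39.1, 49.4 and 49.2 CPM in control replicates 1 to 3, a log2 change of 0.17 (SE 0.26). Rfx1 in those cells was at 39.3, 6.96 and 11.1 CPM in stressed replicates 1 to 3, against 19.8, 23.5 and 8.84 CPM in control replicates 1 to 3. The groups overlapped. Its highest library, stressed replicate 1, had 30.7% of those Rfx1 counts in 1 cell, and the log2 change was 0.10 (SE 0.61) with that library and -0.94 without it. The row Tbpl1-2 was at 367, 554 and 562 CPM in spermatocyte-like cells of stressed replicates 1 to 3, against 408, 497 and 459 CPM in control replicates 1 to 3, a log2 change of 0.12 (SE 0.24).

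Taf7l had few counts in elongating spermatid-like cells. It was at 0, 0.755 and 0.535 CPM in stressed replicates 1 to 3, against 3.34, 0.507 and 2.72 CPM in control replicates 1 to 3. The groups overlapped through control replicate 2. The log2 change was -1.90 (SE 0.88, edgeR unadjusted p = 0.0484, adjusted p = 1.0), where the median over all genes was -0.09. Stressed replicate 1 had 20 such cells, and its 0 allows up to 3.07 CPM; Sox30 and Mybl1 were at 0 there too. In stressed replicate 1, all 16 Gtf2a1l counts of these cells lay in 1 cell, and Rfx2 was at 99.2 CPM, against 38.3 CPM or less in the other libraries. The Rfx2 change of 0.43 (SE 0.51) in elongating spermatid-like cells was -0.54 without that library.

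Genes that act downstream of the factors or beside them were taken as lists. In each of 6 lists, 0 genes rose and 0 fell in any class. The median log2 change over all genes was -0.03 in spermatocyte-like, 0.01 in round spermatid-like and -0.09 in elongating spermatid-like cells and -0.01 over all cells. Among the 8 spermatid genes tied to CREM that were tested, 4 were higher and 4 lower in spermatocyte-like cells (median -0.05), and over all cells 7 were higher and 1 lower (median 0.35), a sum that mixes classes as said above. Round spermatid-like cells had 7 higher and 1 lower, with a median log2 change of 0.17, where the median over all genes was 0.01. In elongating spermatid-like cells 1 was higher and 7 lower, with a median of -0.11, where that over all genes was -0.09. Tnp1 had the lowest p of this list, in spermatocyte-like cells, at 1741, 1750 and 506 CPM in stressed replicates 1 to 3, against 485, 381 and 746 CPM in control replicates 1 to 3. Stressed replicates 1 and 2 lay above all controls and stressed replicate 3 did not, and the log2 change was 1.31 (SE 0.43, edgeR unadjusted p = 0.012, adjusted p = 1.0). In round spermatid-like cells Tnp2 had a log2 change of 0.38 (SE 0.28) and Prm2 of 0.37 (SE 0.28). In elongating spermatid-like cells Odf1, of the outer dense fibres of the tail, had -0.24 (SE 0.23), and Ace -0.18 (SE 0.26).

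Of the meiotic genes tied to A-MYB, 6 of 13 were higher and 7 lower in spermatocyte-like cells (median -0.06, against -0.03 over all genes), and 3 of 11 higher and 8 lower in round spermatid-like cells (median -0.14, against 0.01). It was 1 of 10 higher and 9 lower in elongating spermatid-like cells (median -0.37, against -0.09), and 2 of 13 higher and 11 lower over all cells (median -0.26, against -0.01). Tdrd1, a tudor-domain protein of the piRNA pathway, was at 107, 78.0 and 66.2 CPM in round spermatid-like cells of stressed replicates 1 to 3, against 49.2, 63.2 and 43.8 CPM in control replicates 1 to 3. The stressed libraries lay above the controls without overlap, with a log2 change of 0.68 (SE 0.26, edgeR unadjusted p = 0.0263, adjusted p = 0.997). Ccna1, cyclin A1 of meiosis, had a log2 change of -0.30 (SE 0.29) there. In spermatocyte-like cells Piwil2 had -1.13 (SE 0.80) and Mael -0.22 (SE 0.21).

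Of the cilium and axoneme genes, 10 of 21 were higher and 11 lower in spermatocyte-like cells (median -0.01), and 7 of 22 higher and 15 lower in round spermatid-like cells (median -0.09). It was 9 of 21 higher and 12 lower in elongating spermatid-like cells (median -0.11), and 6 of 22 higher and 16 lower over all cells (median -0.16). Ccdc39 was at 250, 225 and 226 CPM in spermatocyte-like cells of stressed replicates 1 to 3, against 173, 196 and 200 CPM in control replicates 1 to 3, and Ccdc40 at 151, 174 and 161 CPM, against 134, 125 and 108 CPM. Both belong to the ruler that spaces the dynein arms, and for both the stressed libraries lay above the controls without overlap, at log2 changes of 0.30 (SE 0.22) and 0.41 (SE 0.25) and an adjusted p of 1.0 each (edgeR). In round spermatid-like cells Spag6l, of the central pair, had -0.45 (SE 0.27) and Dnai2, a dynein chain, -0.79 (SE 0.47).

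Of the general initiation factors, 7 of 16 were higher and 9 lower in spermatocyte-like cells (median -0.03), and 6 of 15 higher and 9 lower in round spermatid-like cells (median -0.12). Elongating spermatid-like cells had 4 of 12 higher and 8 lower (median -0.20), and over all cells 7 of 18 higher and 11 lower (median -0.07). Taf3, a TFIID subunit that reads a histone mark, was at 780, 1254 and 916 CPM in spermatocyte-like cells of stressed replicates 1 to 3, against 772, 646 and 666 CPM in control replicates 1 to 3. The stressed libraries were higher without overlap, with a log2 change of 0.50 (SE 0.23, edgeR adjusted p = 1.0). Of the family relatives, 1 of 8 was higher and 7 lower in spermatocyte-like cells (median -0.07), and 7 of 8 higher and 1 lower in round spermatid-like cells (median 0.25). Elongating spermatid-like cells gave 3 of 8 relatives higher and 5 lower (median -0.07), and over all cells 9 of 12 higher and 3 lower (median 0.06). Rfx3, the relative of Rfx1, was at 2.20, 9.76 and 10.5 CPM in spermatocyte-like cells of stressed replicates 1 to 3, against 12.2, 31.3 and 13.1 CPM in control replicates 1 to 3. Its stressed libraries were lower without overlap, as those of Rfx1 were, with a log2 change of -1.22 (SE 0.63, edgeR unadjusted p = 0.0802, adjusted p = 1.0). Sox6 in round spermatid-like cells was at 234, 249 and 232 CPM in stressed replicates 1 to 3, against 182, 199 and 211 CPM in control replicates 1 to 3, higher without overlap at a log2 change of 0.27 (SE 0.18, edgeR adjusted p = 0.997). Of the other regulators, 6 of 14 were higher and 8 lower in spermatocyte-like cells (median -0.01), 9 of 14 higher and 5 lower in round spermatid-like cells (median 0.07, against 0.01 over all genes), and 3 of 14 higher and 11 lower in elongating spermatid-like cells (median -0.23, against -0.09). Over all cells 7 of 19 were higher and 12 lower (median -0.12). Kdm3a, a histone demethylase needed for Prm and Tnp genes in the mouse, had a log2 change of 0.38 (SE 0.23) in spermatocyte-like cells, and Dmrtb1 one of -0.87 (SE 0.59) in elongating spermatid-like cells.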

How the data were processed

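Single-cell libraries of testicular tissue were made with the Singleron GEXSCOPE kit and sequenced on a NovaSeq, per the labels' protocols. For each library the authors deposited raw counts, with genes in rows and cells in columns. Aligner, counter, genome build and any use of molecular identifiers were not given in the sources used here. The deposited log-normalized tables were not used.

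Each of the 11744 cells passed the limits of 200 genes or more and 20% mitochondrial counts or less. They were clustered together, with no correction between libraries, on 2000 variable genes less the members and mitochondrial genes, 30 principal components, 15 neighbours and Leiden resolution 1 (scikit-learn 1.9.0, leidenalg 0.10.2, igraph 0.11.9, Python 3.11.15). A cluster took a name with at least 3 supporting markers (over 1.5-fold above the other cells, at least 10 CPM and found in at least 5% of the cells) and no more markers of another class among its 10 leading genes, and a somatic name also needed a marker of its own there. Names carry "-like", since they were rebuilt from markers. Scrublet in scanpy 1.11.5 called 73 cells doublets (0.622%). They were kept, and an alternative dropped the top 5% of doublet scores per library.

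Counts were summed per library and class with at least 20 cells and tested with edgeR 4.0.16 in R 4.3.3 (filterByExpr, TMM, robust quasi-likelihood), with Benjamini-Hochberg adjustment over all genes tested. The difference of the stress effect between classes was tested in one fit over the 3 classes with library as a block within groups. DESeq2 1.42.0, upper-quartile scaling, no filter, other resolutions and leaving out each library were alternatives. Genes named beside the members were, per list and class, the 2 with the lowest p, the 3 genes most like each member, and Tnp1, Tnp2, Prm2, Smcp, Piwil1 and Mael. The stage levels of Camk4, Ldhc, Ace, Tekt1, Rfx3, Gtf2a1, Taf7 and Tbp were picked after their values were seen. The members and lists were chosen with earlier results of these data known. The scripts were tested on simulated data with 100 changed genes per class. Of those changed 2-fold, 0, 8 and 1 were recovered in spermatocyte-like, round and elongating spermatid-like cells. Of those changed 4-fold, 38, 41 and 22 were recovered. Promoters came from RefSeq for 9 of 10 members, with none used for Mybl1.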

Additional observations from a re-analysis of the deposited data

Results flagged for a closer look

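Fhl5 stood high in cells that entered none of the class comparisons. In the unnamed cluster led by Apoe, Cd74 and Fos, Fhl5 was at 878 CPM in the 224 cells of stressed replicate 1 (8727 counts) and at 882 CPM in the 44 cells of control replicate 2 (1574 counts). The other 4 libraries had too few cells there to give a level. This was picked out because these cells lay outside those compared between the groups. The level is within the 676 to 911 CPM (TMM scaled) that Fhl5 had in elongating spermatid-like cells. The cluster's best-scoring class was elongating spermatid, with 11 supporting markers. It stayed unnamed because 3 of its 10 leading genes were markers of another class. The cluster's level of Crem was 48.5 CPM in stressed replicate 1 and 28.0 CPM in control replicate 2, and that of Taf7l 0 and 0.561 CPM. What these cells are was not tested.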

How the results depend on the processing

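No member was called in any comparison under any alternative, and the lowest adjusted p of a member was 0.554. Among the log2 changes, 35 values changed sign and 261 did not under alternatives other than leaving out a library, all 35 of them in results that had not passed the test; the cause was not tested. The class with the highest level of each member was the same at resolutions 0.5 and 2 and from per-cell means, while without stressed replicate 1 it became spermatocyte-like for Rfx1. The 24 spermatocyte-like and 20 elongating spermatid-like cells of stressed replicate 1 limit what these classes can show. Leaving that library out, as resolutions 0.5 and 2 and the doublet alternative also did in elongating spermatid-like cells for lack of 20 cells, moved the median over all genes there to -0.02, and DESeq2 moved it to 0.04.

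The count of genes called was 4, 11, 13 and 14 with DESeq2 in spermatocyte-like, round, elongating spermatid-like and all cells. With no filter on low counts it was 2 in spermatocyte-like, 1 in elongating spermatid-like and 2 in all cells. In elongating spermatid-like cells it was 1 at resolution 0.5, at resolution 2, without the 5% highest doublet scores and with the unnamed cluster counted in, which was chosen after seeing the data. Leaving out each library gave 0 to 1 gene in elongating spermatid-like cells, 0 to 3 in round spermatid-like cells and 0 to 3 over all cells. The 3 in round spermatid-like cells came without stressed replicate 1, without stressed replicate 3 or without control replicate 2, and the 3 over all cells without stressed replicate 1.

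With the replicate number as a block, 0, 0, 1 and 1 genes were called in spermatocyte-like, round, elongating spermatid-like and all cells. The numbers do not pair the animals: over all cells, the deviations of same-numbered libraries correlated at -0.19, 0.016 and 0.251, and not every library correlated best with its own number. Under the block, Rfx1 had a log2 change of -0.11 in round and 0.005 in elongating spermatid-like cells, Mybl1 one of 0.022 over all cells, and Rfx1 one of -1.63 in spermatocyte-like cells.

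Log2 changes that changed sign were these. Within one cluster they were, in spermatocyte-like cells, -0.56 for Rfx4 and -0.025 for Mybl1 (-0.033 without the highest doublet scores). In round spermatid-like cells within one cluster they were -0.44 for Rfx1, 0.041 for Rfx2, -0.065 for Rfx4 and -0.04 for Fhl5. In elongating spermatid-like cells, at resolution 0.5, at resolution 2, without the highest doublet scores, within one cluster and with the unnamed cluster, Rfx2 had -0.55, -0.53, -0.52, -0.40 and -0.12, Rfx4 0.072, 0.013, 0.049, 0.16 and 0.11, and Mybl1 0.26, 0.57, 0.30, 1.41 and 0.55. There Gtf2a1l had -0.051 at resolution 2, -0.27 within one cluster and -0.19 with the unnamed cluster, Crem 0.011 with DESeq2 and 0.11 with the unnamed cluster, and Fhl5 -0.005 with no filter. Over all cells Mybl1 had 0.038 with upper-quartile scaling and 0.008 with DESeq2, and Sox30 0.026 with upper-quartile scaling and 0.014 without the highest doublet scores, an alternative also added after seeing the data. The one cluster was 4 in spermatocyte-like, 8 in round and 12 in elongating spermatid-like cells, and stressed replicate 1 had too few cells in clusters 4 and 12, as control replicate 3 had in cluster 12.

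Leaving out each library in turn changed the sign of some values, whose lowest and highest were as follows. In spermatocyte-like cells they were -0.35 to 0.25 for Gtf2a1l, -0.016 to 0.085 for Mybl1, -0.35 to 0.71 for Rfx4 and -0.44 to 0.27 for Taf7l. In round spermatid-like cells they were -0.19 to 0.027 for Crem, 0.000 to 0.23 for Fhl5, -0.94 to 0.50 for Rfx1 and -0.049 to 0.30 for Rfx4. In elongating spermatid-like cells they were -0.10 to 0.057 for Crem, -0.092 to 0.12 for Fhl5, -0.13 to 0.15 for Gtf2a1l, -0.54 to 0.28 for Mybl1, -1.08 to 0.44 for Rfx1, -0.54 to 0.76 for Rfx2 and -0.63 to 0.084 for Rfx4. Over all cells they were -0.48 to 0.005 for Crem, -0.16 to 0.20 for Mybl1, -1.02 to 0.036 for Rfx1, -0.15 to 0.25 for Rfx4 and -0.099 to 0.12 for Sox30. For the difference of round minus spermatocyte-like cells they were -0.003 to 0.35 for Crem, -0.33 to 0.099 for Gtf2a1l, -0.25 to 0.27 for Rfx4 and -0.44 to 0.28 for Taf7l. For the difference of elongating minus round spermatid-like cells they were -0.080 to 0.28 for Gtf2a1l, -0.73 to 0.054 for Mybl1, -0.52 to 0.74 for Rfx1, -0.18 to 0.56 for Rfx2 and -0.96 to 0.13 for Rfx4.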
